A study of Mus musculus with 52 samples.

Results

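The regions described here are H3K4me3 peaks of the mouse suprachiasmatic nucleus (SCN) that were called in darkness and had no counterpart after light. A peak counted as dark-only when not a single base of it was covered by any peak of the light H3K4me3 list, and each interval was counted once. By that rule 7200 of the 30410 dark H3K4me3 peaks were dark-only, out of 136811 peaks in the 4 H3K4me3 and H3K27ac lists of the series. The remaining 23210 dark peaks overlapped a light peak and are called shared. The members were thus selected on the absence of a light call, so their strength and their distance from light peaks are given as descriptions.

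The chromatin samples came from wild-type male mice of 11 to 12 weeks, and each ChIP sample pooled SCN from 2 pairs. One sample was taken after 1 h of light and the other from the dark, with 1 peak list per mark and condition. The circadian time of the ChIP samples is not given in the sources used here. The RNA used beside them came from wild-type littermates of Npas4 null mice, given 1 h of light at circadian time 17 or kept in the dark (3 libraries each, each a pool of 6 pairs of SCN). The 6 libraries from Npas4-/- mice, with or without the same light, entered only the shared estimate of the spread. A second RNA experiment in wild-type mice, called the light-pulse experiment, held 2 libraries after 1 h of light and 4 from the dark at CT17. Each of these was also a pool of 6 pairs of SCN. The mice of both RNA experiments were 11 to 12 weeks old.

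H3K4me3 is deposited around the start sites of transcribed genes, mostly at CpG-rich promoters, and is written by the SET1 and MLL complexes. H3K27ac marks active promoters and enhancers. The SCN is the hypothalamic nucleus that keeps circadian time, and light at night induces immediate-early and clock genes in its neurons. A tissue sample of it also holds glia, ependyma and vessels.

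The start regions below are examples of promoters under dark-only peaks, picked by fold enrichment, and do not stand for all of them. They are the 4 protein-coding genes whose start lay inside a dark-only peak, with no light peak and no shared peak within 1 kb of that start, and whose peak had the highest fold enrichment. Each sequence runs 5′ to 3′ along the gene, from 250 bases before the start to 50 after it, was taken from RefSeq (GRCm38.p6, the mm10 assembly), and has its CpG dinucleotides in capitals.
Galnt6: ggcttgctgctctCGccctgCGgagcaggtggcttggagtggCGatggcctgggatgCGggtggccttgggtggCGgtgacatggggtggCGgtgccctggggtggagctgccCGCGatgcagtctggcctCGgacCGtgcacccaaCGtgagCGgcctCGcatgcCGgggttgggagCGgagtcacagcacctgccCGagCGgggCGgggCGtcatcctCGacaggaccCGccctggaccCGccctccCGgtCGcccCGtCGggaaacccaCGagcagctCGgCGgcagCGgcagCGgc
Ccdc83: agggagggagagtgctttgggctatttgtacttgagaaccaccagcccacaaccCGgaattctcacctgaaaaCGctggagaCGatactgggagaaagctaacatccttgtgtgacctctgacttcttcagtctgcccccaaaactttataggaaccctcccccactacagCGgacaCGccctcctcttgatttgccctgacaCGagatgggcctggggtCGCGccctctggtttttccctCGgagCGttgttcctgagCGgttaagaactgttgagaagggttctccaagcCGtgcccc
Slc47a2: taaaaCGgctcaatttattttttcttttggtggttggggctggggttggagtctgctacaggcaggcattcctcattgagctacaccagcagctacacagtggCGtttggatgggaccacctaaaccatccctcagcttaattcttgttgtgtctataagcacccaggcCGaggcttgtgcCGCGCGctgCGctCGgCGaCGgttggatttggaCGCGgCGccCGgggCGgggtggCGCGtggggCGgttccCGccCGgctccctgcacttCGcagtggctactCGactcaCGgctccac
Amigo3: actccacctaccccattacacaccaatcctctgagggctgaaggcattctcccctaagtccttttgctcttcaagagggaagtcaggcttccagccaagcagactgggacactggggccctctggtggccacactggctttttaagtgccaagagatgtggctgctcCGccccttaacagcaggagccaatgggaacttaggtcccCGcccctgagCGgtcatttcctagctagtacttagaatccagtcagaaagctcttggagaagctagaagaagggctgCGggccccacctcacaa

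The Galnt6 window (chr15:100729327-100729626, minus strand) held 31 CpGs and 73.7% G and C, and all 300 bases of it lay under the dark-only peak. Galnt6 encodes an enzyme that starts mucin-type O-glycosylation. The Ccdc83 window (chr7:90265383-90265682, minus strand) was also covered whole and held 12 CpGs. In the window of Slc47a2, a transporter gene of the MATE family (chr11:61342811-61343110, minus strand), the peak covered 168 bases and there were 23 CpGs. The window of Amigo3, which encodes a leucine-rich-repeat adhesion protein (chr9:108052909-108053208, plus strand), had 71 bases under the peak and only 4 CpGs. The canonical E-box, CACGTG, and the full cyclic-AMP response element, TGACGTCA, both palindromes that read the same on either strand, occurred in none of these 4 windows, against 7.18% and 1.81% of the promoters of all 27025 genes with such a window.

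The dark-only peaks were weak and narrow. Their median fold enrichment over the caller's background was 4.59, with a range of 1.85 to 11.65, against a median of 22.6 and a maximum of 62.1 for shared dark peaks. These fold and q values are the authors' own peak scores and are compared only within the dark list. The median −log10 q-value was 5.59 in dark-only peaks and 80.5 in shared peaks. The median width was 212 bp in dark-only peaks, against 1378 bp in shared peaks, and 10.6% of the dark-only peaks had the smallest width in the list, 146 bp. Dark-only peaks made up 23.7% of the dark peaks (95% Wilson interval 23.2 to 24.2%, counting error only) but 4.84% of the bases that dark peaks cover, 1806075 of 37279200.

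Stronger dark peaks were less often dark-only. Of the 558 dark peaks with a −log10 q-value of 2 to 3, 79.7% were dark-only, and of the 2173 with 7.5 to 10, 47.6% were. At 15 to 20 the share was 6.72%, and at 20 to 27 it was 1.73%. The highest −log10 q-value of a dark-only peak was 26.84, and 15993 of the dark peaks had 27 or more.

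**Figure D1:**
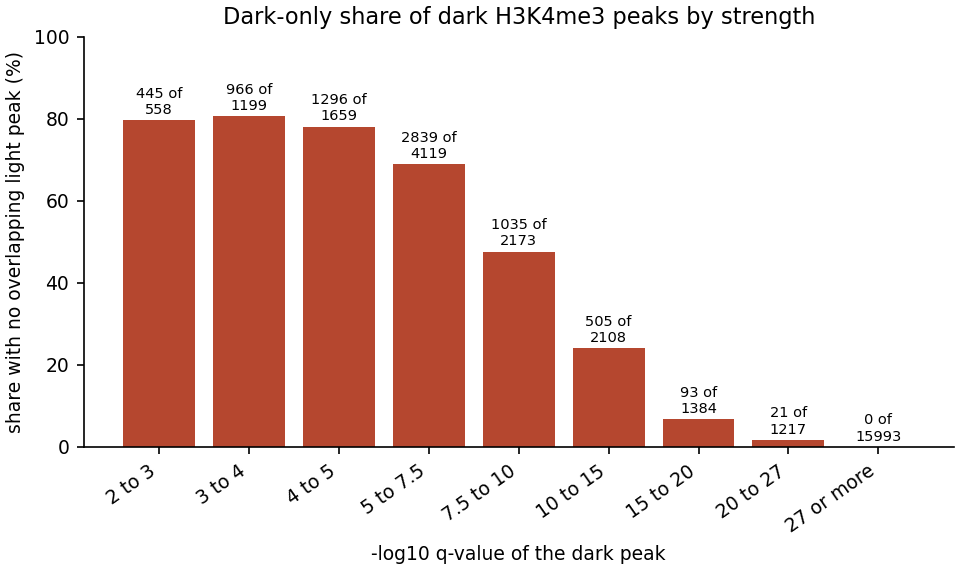
Share of dark H3K4me3 peaks with no overlapping light peak (vertical axis, %) in bins of the dark peak's −log10 q-value (horizontal axis). The numbers over the bars give dark-only peaks and all dark peaks in the bin. The share is 79.7% in the weakest bin and 1.73% at 20 to 27, and the last bin, with 15993 peaks, starts just above the highest dark-only value.

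Fewer peaks were missing in the other direction. Of the 27551 light peaks, 1161 (4.21%, Wilson interval 3.98 to 4.46%) had no dark peak, and these too were weak, with a median fold enrichment of 4.90 and a median width of 175 bp. The dark list is the longer one, so both lists were also limited to their 27551 strongest intervals. Then 4919 dark peaks (17.9%) had no light counterpart, against 1540 light peaks (5.59%) with no dark counterpart. Among dark peaks with a −log10 q-value of 10 or more, 619 of 20702 (2.99%) were dark-only.

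The fold values also reflect how finely each library could measure. Of the dark-only peaks, 53.4% had a fold enrichment that was a whole multiple of 0.353 (within 0.001), at a median of 14 multiples and a range of 9 to 33, whereas the shared dark peaks on this ladder had a median of 72. The corresponding step was 0.408 in the light list, against 0.353 in the dark list. The peak caller divides a fragment pileup by a local background, so a smaller step goes with a higher background level. The read depth of these libraries is not given in the sources used here, and its part in the dark-only calls was not tested. With 1 library in each list there is no replicate error to set against any difference between the lists.

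Dark-only peaks were divided by their distance from the nearest light peak, at 1 kb. The median gap to the nearest light peak was 2078 bp. A light peak lay within 1 kb of 3204 dark-only peaks (44.5%), which are called flanking, at a median gap of 228.5 bp. For the other 3996 (55.5%), called isolated, the median gap was 20645 bp, and 526 dark-only peaks were over 100 kb from any light peak. Both kinds were similarly weak, with median folds of 4.59 in flanking and 4.68 in isolated peaks.

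**Figure D2:**
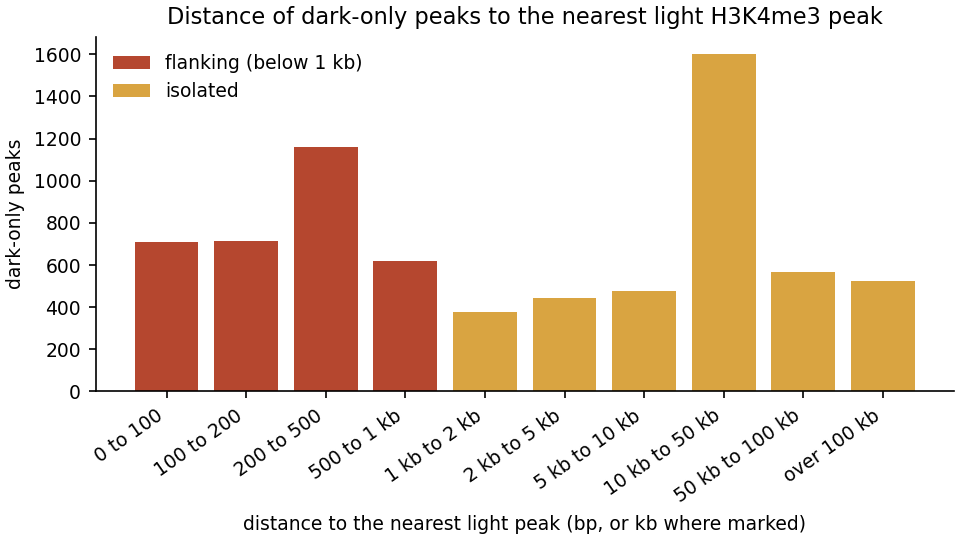
Number of dark-only peaks (vertical axis) by distance from the edge of the peak to the edge of the nearest light H3K4me3 peak (horizontal axis, bins of unequal width). Flanking peaks, within 1 kb, are red and number 3204, and the 3996 isolated peaks are yellow.

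The flanking peaks lay beside peaks that both lists contain. A shared dark peak lay within 1 kb of 94.0% of them, so in the dark list itself they were separate summits next to a larger peak. The 2732 shared peaks with such a neighbour had a median width of 1596 bp, against 1358 bp in the other 20478 shared peaks. Of the 1926 flanking peaks within 5 kb of a start of known strand, 79.8% lay downstream, at a median of 1835 bp from the start, while 79.9% of the 14158 shared peaks lay downstream, at a median of 312 bp. A flanking peak cannot overlap the light peak beside it, so part of this offset follows from the rule.

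The peaks on either side of the rule's border show how fine that border is. On the dark-only side, 3 peaks touched a light peak with a gap of 0 bp, at folds of 4.59, 4.68 and 5.01. Their nearest starts were those of the long non-coding RNA genes Gm32881, Gm6145 and Gm35400, at 101448, 106 and 19676 bp from the summit. Just outside the rule, the shared peaks near Slc9a3r1, Gm5464 and Ube2j2 overlapped a light peak by 1 bp, at folds of 7.35, 4.24 and 5.53.

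The highest fold, 11.65, was that of a 275 bp peak on chromosome 10 (chr10:93051115-93051389, mm10) in a gene body 23560 bp from the start of the lncRNA gene Gm40739 and 29294 bp from the nearest light peak. A 279 bp peak with a fold of 11.3 (chr2:92437838-92438116) lay 3911 bp upstream of Cry2, which encodes a repressor of the circadian clock, and 2932 bp from a light peak. Cry2 RNA did not differ between light and dark beyond its error, with a log2 change of 0.04 ± 0.05 (SE, n = 3 each, edgeR adjusted p = 0.989).

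Of the 12 strongest, 3 were at a gene start. The Galnt6 peak (chr15:100728875-100729648, 774 bp, fold 10.6) had its summit 129 bp downstream of the start and no light peak within 17302 bp. The peak at Park7, which encodes the oxidative-stress protein DJ-1 (chr4:150910041-150910415), lay 88 bp from a light peak and overlapped H3K27ac in both conditions. The peak at Cntfr, the receptor subunit for ciliary neurotrophic factor (chr4:41695875-41696071), had its summit 47 bp from the start. The others of the 12 were nearest to 1700120C14Rik, the netrin gene Ntn5, Gm30050, the kinesin gene Kif19a, Dab1 (an adaptor of reelin signalling), Gm41914 and Gm36416, with folds of 10.23 to 11.3. They included 5 flanking and 7 isolated peaks.

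The widest dark-only peak, of 1280 bp, lay at Il33 (chr19:29925787-29927066), which encodes a nuclear cytokine of the interleukin-1 family, and its nearest light peak was 283 bp away. The next widest, of 1210 bp, lay near an end of Grhl2, an epithelial transcription factor gene. The third, of 1022 bp, lay 25057 bp into the gene of the atypical kinesin Kif26a and overlapped a dark H3K27ac peak only. These 3 peaks had folds of 4.94 to 7.35, so width and fold did not rank the peaks alike.

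Most dark-only peaks were inside genes, away from starts. A summit lay within 1 kb of a gene start for 1149 dark-only peaks (16.0%, Wilson interval 15.1 to 16.8%), against 63.2% of shared peaks. A further 63.9% of dark-only peaks lay elsewhere in gene bodies, against 24.9% of shared peaks, and 20.2% lay outside genes, against 11.9%. The interval itself held a start in 2.88% of dark-only peaks and in 56.1% of shared peaks. At starts, 69.7% of dark-only peaks were nearest to a protein-coding gene and 30.3% to a lncRNA gene, against 89.1% and 10.9% for shared peaks. For 7589 of the 34614 genes without a start of known strand both gene ends served as starts, so some of these positions are gene ends.

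H3K27ac gave a separate readout from other libraries. Of the dark-only H3K4me3 peaks, 20.3% overlapped an H3K27ac peak of either condition (Wilson interval 19.4 to 21.3%), against 62.1% of shared peaks. The light H3K27ac list covered 14.9% of the dark-only peaks and the dark H3K27ac list 16.3%. Acetylation in both conditions was found at 10.8%, in light only at 4.04% and in dark only at 5.44%. The peaks with both marks called in the dark alone numbered 392. Of the shared peaks, 49.8% overlapped H3K27ac in both conditions, 5.64% in light only and 6.7% in dark only. As a share of all peaks, acetylation in the dark only was thus not more frequent at dark-only peaks than at shared peaks. As a share of the peaks that overlapped any H3K27ac it was more frequent, at 392 of 1462 dark-only and 1554 of 14413 shared peaks. On that base, acetylation in light only was more frequent too, at 291 of 1462 against 1310 of 14413. These counts were not compared at equal peak strength. Isolated peaks overlapped H3K27ac more often than flanking ones, at 24.9% against 14.6%. Within 1 kb of an H3K27ac peak the order was the other way, with 32.8% of isolated and 45.8% of flanking peaks.

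**Figure D3:**
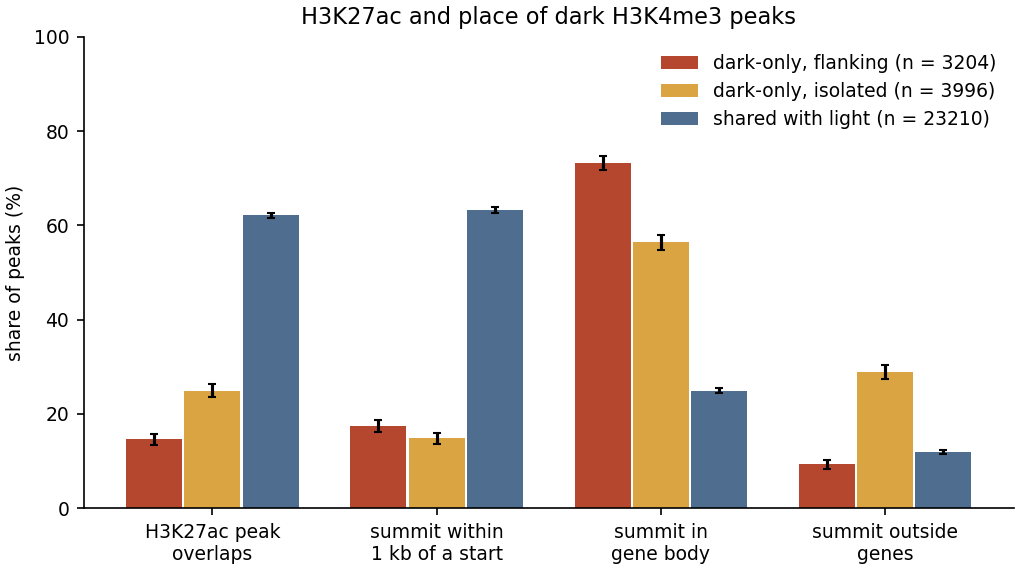
Share of peaks (vertical axis, %) that overlapped an H3K27ac peak of either condition, and share by place of the summit, for flanking dark-only, isolated dark-only and shared dark H3K4me3 peaks. Error bars are 95% Wilson intervals and cover counting error only. Both kinds of dark-only peak overlap H3K27ac and lie at starts less often than the shared peaks.

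Peaks of equal strength differed far less. Among dark peaks with a −log10 q-value of 5 to 7.5, 20.6% of 2839 dark-only peaks and 22.2% of 1280 shared peaks overlapped H3K27ac, and 16.2% and 17.5% lay at a start. At 10 to 15 the H3K27ac shares were 22.4% in dark-only and 31.1% in shared peaks, and the start shares 18.2% and 23.5%. At 15 to 27, 21.9% of the 114 dark-only peaks and 34.7% of the 2487 shared peaks lay at a start. Dark-only peaks were narrower than shared peaks in each of these bins, with medians of 210 against 281.5 bp at 5 to 7.5 and 313 against 506 bp at 10 to 15.

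Gene starts were then sorted by the peaks within 1 kb of them, for the 27025 genes with a start of known strand. Dark-only peaks were the only H3K4me3 peaks at the start of 343 genes (1.27%), of which 188 were protein-coding (1.07% of 17492). Both lists had a peak at 13101 genes, and at 538 of these a dark-only peak lay within 1 kb of a start as well. Light-only peaks alone were found at 24 genes, and 13557 genes had no peak. The genes marked in the dark list alone were thus few beside those marked in both.

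The promoters of the genes marked by dark-only peaks alone were lower in CpG than those marked in both lists. The median window of the 188 protein-coding genes held 8 CpGs (quartiles 4 and 14) and 56.5% G and C. The median of the 11013 genes with peaks in both lists was 21 CpGs (quartiles 14 and 29) and 62.0%, and that of the 6277 genes with no peak was 2 CpGs and 46.3%. An observed-to-expected CpG ratio of 0.6 or more was reached by 23.9% of the windows marked by dark-only peaks alone, against 74.7% and 4.03% of the 2 other classes. In this measure the genes marked by dark-only peaks alone stood between these classes. So did the 14 protein-coding genes marked by light-only peaks alone, with a median of 7.5 CpGs and 56.3% G and C. Of their windows, 28.6% reached that ratio. CpG content was not compared at equal peak strength. An E-box occurred in 7.98% of the windows marked by dark-only peaks alone, against 10.2% of those marked in both lists.

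RNA of the genes marked by dark-only peaks alone was low. In the 3 light libraries their median was 0.467, 0.421 and 0.421 RPKM, and in the 3 dark libraries it was 0.485, 0.402 and 0.406 RPKM, over the 181 protein-coding genes found in the table. The 10846 genes marked in both lists had medians of 7.94 to 8.13 RPKM in light and 7.91 to 8.23 RPKM in the dark. Light and dark libraries overlapped in both classes. A dark mean of 1 RPKM or more was reached by 39.2% of the genes marked by dark-only peaks alone, 88.1% of those marked in both lists and 6.47% of the 5639 with no peak. In these bulk samples, fewer cells of a type and less RNA per cell cannot be told apart.

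Much of that gap between the classes went with peak strength. Where the strongest dark peak at the start had a −log10 q-value of 5 to 10, the median dark level was 0.527 RPKM over 121 genes marked by dark-only peaks alone and 0.819 RPKM over 157 genes marked in both lists. Where it was under 5, the medians were 0.409 and 0.372 RPKM over 36 and 21 genes. At 10 to 27 they were 0.275 RPKM over 24 genes and 0.825 RPKM over 554 genes. The order of the classes was therefore not the same in every bin.

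**Figure D4:**
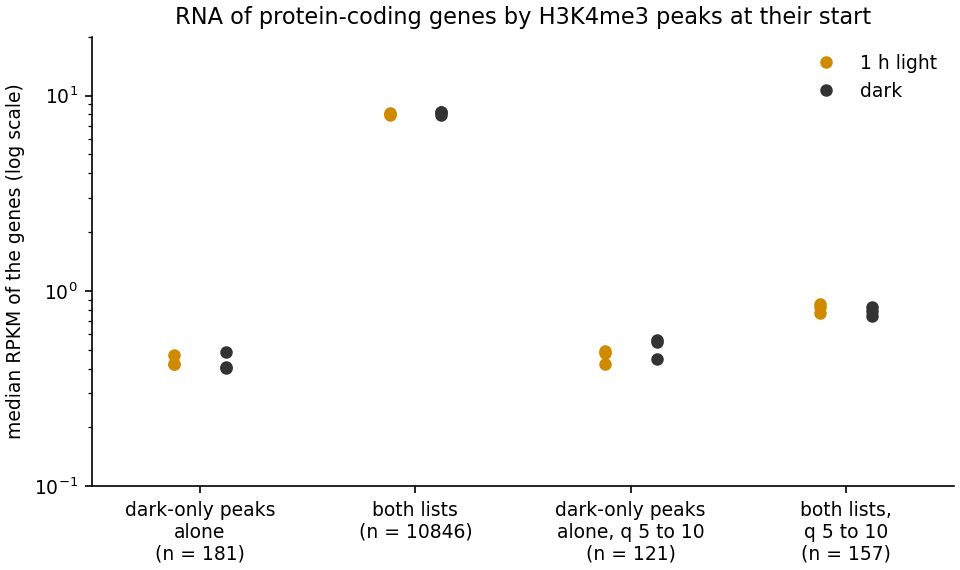
Median RPKM (vertical axis, log scale) of protein-coding genes grouped by the H3K4me3 peaks within 1 kb of their start, with 1 point per library for 3 light and 3 dark libraries of wild-type littermates. The right-hand groups are limited to genes whose strongest dark peak has a −log10 q-value of 5 to 10, where the medians are closer than over all genes.

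Among genes with known roles in this tissue, Vip was marked by a dark-only peak alone. Vip encodes vasoactive intestinal peptide, the transmitter of the light-receiving core neurons of the SCN. Its peak (chr10:5639452-5639929, 478 bp, fold 6.00, −log10 q 8.81) had its summit 530 bp downstream of the start, no H3K27ac and no light peak within 88333 bp. Vip RNA was nonetheless abundant, at 333, 315 and 399 RPKM in light libraries and 288, 492 and 432 RPKM in dark libraries. The groups overlapped, and the log2 change was −0.20 ± 0.22 (SE, n = 3 each, edgeR adjusted p = 0.992). In the light-pulse experiment Vip stood at 194 and 208 RPKM in light, against 186 to 273 RPKM in the dark. Of the 13 SCN markers with a start of known strand, the other 12 had peaks in both lists.

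Avp, which encodes the vasopressin of the SCN shell, had peaks in both lists at its start and a dark-only peak beside them. That peak was 147 bp wide with a fold of 5.01, and lay 414 bp from a light peak. Avp RNA stood at 1190, 440 and 350 RPKM in light libraries and 509, 350 and 375 RPKM in dark libraries. One light library was far above the other 5, and the groups overlapped. In the light-pulse experiment they did not, and Avp was lower in light, at 56.0 and 62.2 RPKM, against 129 to 212 RPKM in the dark.

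Myelin genes were a second marker group with starts marked by dark-only peaks alone. They were Mog (fold 6.35, −log10 q 9.79), Mobp (fold 4.34, −log10 q 4.75) and Opalin (fold 4.24, −log10 q 4.32), all expressed by mature oligodendrocytes. The peaks of Mobp and Opalin were thus weak calls, under the stricter −log10 q limit of 5. Mog, Mobp and Opalin were 3 of the 6 oligodendrocyte markers with a start of known strand, and the other 3 had peaks in both lists. Of all protein-coding genes with such a start, 1.07% were marked by dark-only peaks alone (188 of 17492). Mog RNA was 29.7, 30.8 and 33.1 RPKM in light libraries and 31.5, 22.7 and 40.7 RPKM in dark libraries. Mobp RNA was 134, 146 and 160 RPKM in light libraries and 137, 107 and 199 RPKM in dark libraries. The light values lay within the dark range for both genes in these libraries, and Opalin overlapped too, at 6.25 to 6.97 RPKM in light and 4.78 to 6.93 RPKM in the dark.

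In the light-pulse experiment all 3 myelin genes were lower in light, with ranges apart. Mog stood at 17.7 and 28.5 RPKM in light, against 35.7 to 47.1 RPKM in the dark. Mobp stood at 114 and 171 RPKM in light, against 222 to 258 RPKM in the dark, and Opalin at 4.82 and 6.87 RPKM in light, against 8.65 to 10.8 RPKM in the dark. The 8 oligodendrocyte markers together summed to 640 and 945 RPKM in light, against 1220 to 1490 RPKM in the dark. Of all 15001 genes, 15.9% were lower in light with ranges apart in that experiment and 7.97% higher. Its 4 dark libraries carry only 2 numbers and may hold fewer than 4 separate pools. In the titles 2 of the dark libraries carry an added s and neither light library does, so a batch may set these 2 apart.

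All 8 oligodendrocyte markers were the nearest gene of at least 1 dark-only peak, 24 peaks in all, against 16.4% of the 21887 protein-coding genes. So were all 4 ependymal markers, 6 of 7 astrocytic, 5 of 9 pan-neuronal, 5 of 14 SCN and 1 of 7 microglial markers. All these markers passed the RNA filter on low counts, and of the 15001 genes that did, 3226 were nearest genes of a dark-only peak.

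Other cell types gave fewer such starts. The start of P2ry12, the ADP receptor of microglia, carried a dark-only peak alone (fold 4.59, nearest light peak at 80287 bp), while the other 3 microglial markers with a start of known strand had no peak. P2ry12 RNA was 11.1, 12.2 and 11.2 RPKM in light libraries and 11.7, 11.0 and 12.8 RPKM in dark libraries. In the light-pulse experiment it was lower in light, at 14.0 and 15.5 RPKM, against 17.3 to 19.6 RPKM in the dark. No pan-neuronal or astrocytic marker start was marked by dark-only peaks alone, of 7 and 6 with a start of known strand. Dark-only peaks lay within 1 kb of starts also at Cspg4 of oligodendrocyte precursors, Igf2 of meninges, Slc17a6 of excitatory neurons and Ccdc153 of ependyma. At Pecam1 of endothelium and Rarres2 of ependyma they lay within 1 kb of a gene end that may not be the start, as its strand is not known.

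In the littermates of Npas4 null mice the ranges of summed RNA overlapped between light and dark libraries for these marker lists. The SCN markers summed to 1140 to 1980 RPKM in light and 1150 to 1330 RPKM in dark libraries, and the oligodendrocyte markers to 883 to 981 RPKM in light and 737 to 1160 RPKM in dark. Microglial markers summed to 93.7 to 98.1 RPKM in light and 85.0 to 102 RPKM in dark libraries. Markers of non-neural epithelium and muscle summed to 0.240 to 0.580 RPKM in light and 0.254 to 0.527 RPKM in dark. The sums of some lists had ranges apart in the light-pulse experiment. Pan-neuronal markers were higher in light, at 878 and 880 RPKM, against 808 to 841 RPKM in the dark. Endothelial and mural markers were lower, at 33.9 and 36.2 RPKM, against 38.7 to 49.4 RPKM in the dark. So were oligodendrocyte precursor markers, while SCN, astrocytic, microglial and ependymal sums overlapped. The part of tissue makeup in the lower RNA of single genes there was not tested. The cell makeup of the 2 ChIP samples is not measured by these RNA libraries, and its part in the dark-only calls was not tested.

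Developmental regulators of the Hox, Pax, Nkx, Fox, Sox, Lhx, Wnt and other families included 129 genes with a start of known strand. Dark-only peaks alone marked the start of 10 of these 129 genes, against 1.07% of the protein-coding genes. A further 70 had peaks in both lists and 48 had none. Nkx2-1, a patterning gene of the ventral forebrain and hypothalamus, had the strongest of these dark-only peaks (chr12:56535539-56536170, fold 7.76), 875 bp downstream of the start used and 748 bp from a light peak. Its RNA was 2.24, 2.54 and 2.25 RPKM in light libraries and 2.65, 1.56 and 1.93 RPKM in dark libraries. The others were Sox15, Gata5, Foxe3, Hoxd9, Tbx22, Nkx1-1, Foxi2, Neurog1 and Lhx9. Of these, Lhx9 had the highest RNA, at 0.305 to 0.421 RPKM in light and 0.246 to 0.316 RPKM in dark libraries, and each of the other 8 was at 0.111 RPKM or less in all 6 libraries.

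Light-induced and clock genes were marked in both lists. All 18 immediate-early genes with a start of known strand had a peak in both lists, and so had all 19 clock genes. Dark-only peaks lay within 1 kb of the starts of Npas4 and Jund alone among the 23 immediate-early genes. The peak at Npas4, the activity-induced bHLH-PAS factor after which the null mice are named, lay 828 bp upstream of the start and 585 bp from a light peak (chr19:4990691-4991090, 400 bp, fold 5.92). Npas4 RNA was 4.15, 3.21 and 4.30 RPKM in light libraries and 2.70, 2.44 and 2.62 RPKM in dark libraries of wild-type littermates. The light libraries were all higher, and the change of 0.61 ± 0.23 (log2, SE, n = 3 each) missed the threshold (edgeR adjusted p = 0.340, and 0.132 with the replicate number as a block). In Npas4-/- libraries the gene stood at 1.40 to 2.24 RPKM in light and 1.66 to 3.22 RPKM in the dark, counted over the whole gene.

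Neuropeptide genes with a dark-only peak within 1 kb of their start were Vip, Avp and 5 of the other 29 genes of that list, where 3.28% of the 21887 protein-coding genes had one. Besides Tac1 (fold 6.71), which encodes substance P, Cartpt (fold 4.94) and the oxytocin receptor gene Oxtr (fold 3.88) were named among them. Their light peaks were 337, 18 and 210 bp away. In the littermates of Npas4 null mice none of these 3 passed the test, with adjusted p-values of 0.999 each (edgeR). In the light-pulse experiment Tac1 stood at 3.53 and 6.20 RPKM in light, against 7.05 to 11.5 RPKM in the dark. Cartpt stood at 26.3 and 27.4 RPKM in light, against 36.1 to 47.1 RPKM in the dark. Both were lower in light with ranges apart, while Oxtr overlapped, at 0.598 and 0.778 RPKM in light and 0.734 to 1.46 RPKM in the dark. Of the 20 tested genes named from the lists, 8 were lower in light, 1 was higher and 11 overlapped in that experiment. There, 15.9% of all 15001 genes were lower in light with ranges apart and 7.97% higher. The whole neuropeptide list summed to 1490 and 1540 RPKM in light, against 1560 to 1710 RPKM in the dark.

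Nearest genes of dark-only peaks responded to light at about the rate of all genes. In wild-type littermates, 386 of 15001 genes changed after 1 h of light (2.57%, edgeR quasi-likelihood test, adjusted p under 0.05), 335 higher (2.23%) and 51 lower (0.34%). The 7200 dark-only peaks had 5336 nearest genes, of which 3530 were in the count table and 3226 were tested. Of these, 97 were called (3.01%), 81 higher and 16 lower. The libraries with the same number deviated together, and with the number as a block the calls were 178 of 3226 (5.52%), against 755 of 15001 (5.03%). The median log2 change was 0.00238 for the nearest genes and −0.0117 for all genes tested. These shares are near the background and say nothing particular about the dark-only peaks.

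The subset nearest to its start gave a similar share. Among nearest genes with a summit within 1 kb of their start, 13 of 603 tested were called (2.16%), 9 higher and 4 lower, and 26 with the block. Among genes marked by dark-only peaks alone, 131 of 183 passed the filter on low counts and 1 was called, Amigo3, or 2 with the block. The median dark level of the 3530 nearest genes was 7.32 RPKM, with an SD of 0.129 RPKM over the medians of the 3 dark libraries.

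Of the 13 called genes with a dark-only summit at their start, the 12 with the smallest adjusted p are described here, in both directions. Vgf, which encodes a secreted precursor of neuropeptides, rose, with 412, 369 and 387 CPM in light libraries and 154, 183 and 136 CPM in dark libraries. The groups did not overlap, and the log2 change was 1.30 ± 0.14 (SE, n = 3 each, edgeR adjusted p = 0.000102). Its dark-only peak (chr5:137025296-137025745, fold 4.01) lay 3799 bp from a light peak. Jund, which encodes an AP-1 subunit, rose to 254, 210 and 247 CPM in light libraries, against 141, 140 and 155 CPM in dark libraries. Its peak, upstream of the start, overlapped dark H3K27ac only and lay 998 bp from a light peak. At both genes an H3K4me3 peak called in the dark alone stood beside RNA that was higher in light. The start of Jund also had H3K4me3 peaks in both lists, and Vgf has no start of known strand. These values therefore show no loss of H3K4me3 from the start of either gene.

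Klf16, a Krüppel-like factor gene, rose by 0.86 ± 0.11 and Bcor, which encodes the BCL6 corepressor, by 0.65 ± 0.13 on the log2 scale (SE, n = 3 each, edgeR adjusted p = 0.000487 and 0.0126). Npy6r, a neuropeptide Y receptor gene, had 9.16, 9.50 and 11.1 CPM in light libraries and 17.7, 33.4 and 22.3 CPM in dark libraries. It fell by 1.31 on the log2 scale (SE 0.23, n = 3 each, edgeR adjusted p = 0.00598), and its peak lay 109012 bp from any light peak, at a low fold of 3.53. Ankrd34a fell by 0.59 on the log2 scale (SE 0.09) and Cirbp, the cold-inducible RNA-binding protein gene, fell by 0.34 (SE 0.08). Amigo3 stood at 2.19, 2.17 and 2.59 CPM in light libraries and 1.17, 1.05 and 0.772 CPM in dark libraries, a log2 change of 1.21 ± 0.28 (SE, n = 3 each, edgeR adjusted p = 0.0341). Of the remaining 4, Tmcc3, Rbm4b and Fndc9 rose by 0.31 to 0.36 and Klhl8 fell by 0.24 on the log2 scale. Vgf, Klf16, Npy6r and Klhl8 have no start of known strand in the table used, so their summits may lie at the end of the gene. The starts of Jund, Ankrd34a, Tmcc3, Bcor, Rbm4b, Fndc9 and Cirbp had peaks in both lists besides, and only that of Amigo3 had dark-only peaks alone. The call of Amigo3 was lost when any 1 of the 6 libraries was left out, and those of Bcor, Rbm4b, Klhl8, Fndc9 and Cirbp when some were.

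**Figure D5:**
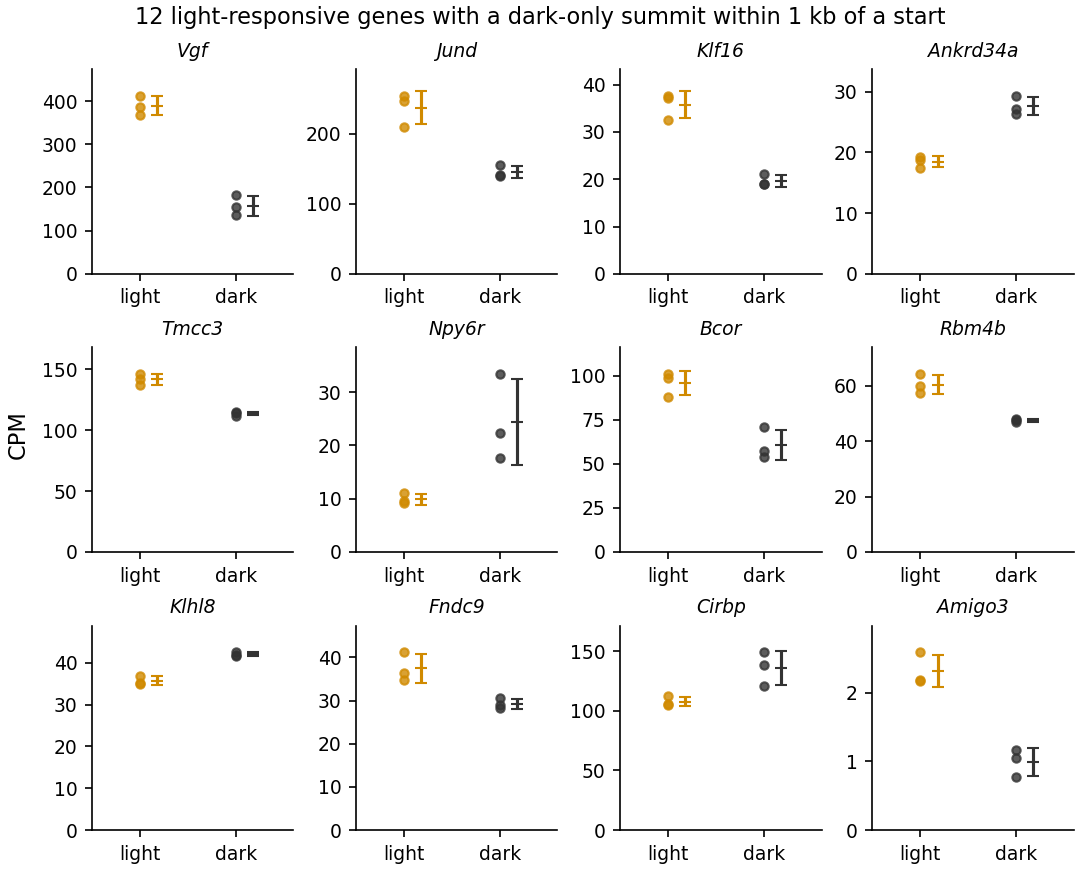
CPM (vertical axes, from 0) of 12 of the 13 light-responsive genes with a dark-only summit within 1 kb of their start, those with the smallest adjusted p, in wild-type littermates after 1 h of light (yellow) and in the dark (black). Points are libraries, and bars beside them give the mean and SD of 3 libraries. Vgf, Jund, Klf16, Tmcc3, Bcor, Rbm4b, Fndc9 and Amigo3 are higher in light, and Ankrd34a, Npy6r, Klhl8 and Cirbp lower.

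The 12 genes were also read in the light-pulse experiment. In 7 of the 12 the RPKM ranges of 2 light and 4 dark libraries lay apart, in the same direction as above. Of all 15001 genes, 23.9% had ranges apart in either direction, 7.97% higher in light and 15.9% lower. The 12 genes were picked for their calls above and the 15001 were not, so these shares are not a like background. Vgf stood at 90.5 and 101 RPKM in light, against 38.3 to 60.5 RPKM in the dark, and Npy6r at 2.40 and 3.34 RPKM in light, against 5.11 to 9.47 RPKM in the dark. Amigo3 had 0.293 and 0.375 RPKM in light and 0.196 to 0.339 RPKM in the dark, with overlapping ranges, as had Tmcc3, Rbm4b, Klhl8 and Cirbp.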

How the data were processed

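ChIP-seq of H3K4me3 and H3K27ac and bulk RNA-seq were used. Per the submitters' processing notes, BWA 0.7.16a, MACS2 2.1.1, STAR 2.7.1a, HTSeq 0.9.1 and the build mm10 were used in the series, and which tool made which file is not given in the sources used here. The authors deposited 1 peak list per mark and condition, each peak with a linear fold enrichment over background and a −log10 q-value, whose lowest value in the dark list is 2.03. The authors deposited raw read counts per gene and RPKM values of the same libraries, and the gene length these imply agreed over the 6 wild-type libraries within a relative spread of 5e-14. Library totals in the Npas4 experiment ran from 26638939 to 32097975 counts.

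Peaks overlapped when they shared 1 bp, and the overlap counts equalled those of bedtools 2.31.1. Gene starts came from RefSeq (GRCm38.p6), as did the promoter sequences. Of 21999 gene symbols in the count table, 20963 matched. Counts were tested with edgeR 4.0.16 (TMM, filterByExpr, quasi-likelihood F-test, Benjamini-Hochberg adjustment over 15001 genes) on all 12 libraries in 4 groups, and with DESeq2 1.42.0 as an alternative. CPM are counts scaled to the TMM-adjusted library total. Libraries with the same replicate number in the titles deviated together (correlations of 0.198, 0.249 and 0.264), which is where the pairing comes from, so blocked values stand beside results they change. Nothing says that the libraries of a group are separate cohorts, so p-values measure only the spread between these pools, which may be technical.

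The members, gene lists and tests were chosen with earlier results of these data known. Named genes were the nearest genes of the 12 strongest and 3 widest peaks and of the 3 peaks on each side of the rule's border, called genes within 1 kb of a summit (up to 12 by adjusted p) and list members within 1 kb (up to 5 a list). Starts marked by dark-only peaks alone, the promoter windows printed and the comparison at equal strength were chosen after seeing the data. Peak sequences were planned and are not printed, as no genome was used here. Single-nucleus samples and ChIP inputs were not analysed here.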

Additional observations from a re-analysis of the deposited data

Results flagged for a closer look

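Fndc9, one of the 12 called genes described with a dark-only summit at its start, had 1 of its 4 dark CT17 libraries of the light-pulse experiment below the rest, at 20.2 RPKM against 21.7, 21.8 and 22.0 RPKM in the other 3. The gap to the nearest library made up 0.832 of the range of the 4, just above the limit of Dixon's test for 4 values. Chance alone flags about 1 in 20 such groups, and 21 genes were examined. The 2 light libraries, at 26.4 and 29.3 RPKM, were above all 4.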

How the results depend on the processing

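The number of dark-only peaks depended most on the strength asked of the dark peak. It was 3996 with no light peak within 1 kb, 4493 with dark peaks at a −log10 q-value of 5 or more and 619 at 10 or more, and it stayed within 1.5 times of 7200 under the other 5 alternatives, from 4919 with lists of equal length to 9328 when at least 50% of a dark peak had to be covered. The median width was 219 bp with no light peak within 1 kb and 234 bp at a −log10 q-value of 5 or more. The median fold stayed between 4.59 and 4.68. The H3K27ac share was 15.8% when 50% of the peak had to be covered, 14.7% with H3K27ac peaks at 5 or more, 24.9% with no light peak within 1 kb, and 14.9% and 16.3% with the light or the dark H3K27ac list alone. The share at a gene start was 9.71% within 500 bp, 37.5% within 2500 bp, 17.4% measured from the peak's edge and 14.8% with no light peak within 1 kb.

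Of the nearest genes, 178 were called with the replicate block, 13 with peaks at a start only, 43 with no light peak within 1 kb and 64 at a −log10 q-value of 5 or more, the last 3 from fewer genes tested. Counts were 70 to 88 with 1 library left out, 127 with DESeq2, 96 without the filter and 84 with wild-type libraries only, against 97. The block moved the calls among all genes to 755, against 386, and ended no call of the 12 named genes, of which 6 were called in each of the 10 settings run and none changed direction. The median dark level of nearest genes was 7.19 RPKM in dark library 2 alone, 6.97 RPKM in the light-pulse CT17 libraries and 35.3 on the CPM scale. The causes of these shifts were not tested beyond the fewer peaks or genes that enter. Without replicates or read depths of the ChIP libraries, the difference between a peak lost after light and a peak just under the caller's threshold cannot be told apart.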

Other observations

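Some genes carried several dark-only peaks. Of the 5336 nearest genes, 4036 had 1 such peak, 931 had 2 and 369 had 3 or more. The most were at Gnas, which encodes the stimulatory G protein alpha subunit and is imprinted, with 9 peaks, of which 7 were flanking, at folds of 3.41 to 5.01. The hedgehog receptor gene Ptch1, Lrig1 and the kinase gene Aatk had 8 each. Zfhx3, a transcription factor gene of the SCN, had 7, of which 3 were flanking, at folds of 3.51 to 6.71, and none lay within 1 kb of a start.

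Replication-dependent histone genes lie in dense clusters. Of 58 histone genes with a start of known strand, 50 had peaks in both lists, 2 had dark-only peaks alone and 6 had none. The 2, H4c17 (fold 7.06) and H4c18 (fold 5.65), lie near each other on chromosome 13 and were 24023 and 23545 bp from a light peak, and their reads may be shared with near-identical copies. Over the autosomes and the X chromosome, the dark-only share of dark peaks ran from 19.9% on chromosome X to 27.8% on chromosome 18. Genes for olfactory and vomeronasal receptors had no dark-only peak within 1 kb of any of their 1262 starts of known strand, nor had testis and germline genes.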
